A study of Homo sapiens with 4 samples.

Results

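The cytosolic ribosomal protein genes encode the protein subunits of the ribosome that translates nuclear messages. They were taken as every row of the deposited gene table named RPL or RPS with a number and at most one letter A, X, Y or L, together with RPLP0, RPLP1, RPLP2, RPSA and FAU and without the Y-linked genes RPS4Y1 and RPS4Y2, if their normalised counts averaged 100 or more across the 4 libraries. The names matched 84 of 56832 rows, and 80 genes were kept, 33 of the small (40S) subunit and 47 of the large (60S) subunit. RPS10 was just inside the minimum with a mean of 101, and RPL17 was next with 466. RPL3L with 27.6, RPL10L with 20.04, RPS10L with 3.96 and RPS5L with 0.271 were left out.

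Total RNA was sequenced from A375, an established human melanoma cell line with a wild-type genotype label. One group of 2 libraries received 1 mM octanoate, a medium-chain saturated fatty acid, for 48 h. The other group of 2 libraries received the isopropanol vehicle for the same 48 h. The labels do not say whether replicates were separate cultures, so p-values measure only the spread between these libraries, which may be technical, and all of it comes from 1 cell line.

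The ribosome carries about one copy of most of these proteins, and cells make them in matched amounts. Their messages are abundant and usually begin with a terminal oligopyrimidine tract, a C at the first base followed by a run of C and T. Through this tract their translation is controlled by the kinase mTOR and the binding protein LARP1, largely without a change of message level. Melanoma cells that grow quickly need many ribosomes, and free ribosomal proteins such as RPL5 and RPL11 can bind MDM2, the ligase that degrades p53.

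The tract was read in RefSeq promoters (GRCh38.p14), in which 64 of the 80 genes were found by symbol. A C at an annotated start followed by at least 4 bases that are each C or T, on the transcribed strand and at any of the starts listed for the gene, was present in 47 of these 64 genes (73.4%). It was present at 4.07% of all 35116 starts in the table and in 806 of 11325 tested genes with an entry (7.12%). Of 68 genes for mitochondrial ribosomal proteins with an entry, 6 had it (8.82%). The stretches below run from 15 bases before the start to 15 bases after it, 5′ to 3′, and the capitals mark the unbroken run of C and T that begins at the start. They were chosen to show the tract in genes of several roles, in the paralogue RPL22L1, which rose under octanoate, and its absence in RPS27L. RPS19 and RPL11 have 2 listed starts each, and a start with the tract is shown.
RPS6 (chr9:19380222-19380251, minus strand): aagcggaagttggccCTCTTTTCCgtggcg
RPSA (chr3:39406705-39406734, plus strand): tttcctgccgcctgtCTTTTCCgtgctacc
RPLP0 (chr12:120201097-120201126, minus strand): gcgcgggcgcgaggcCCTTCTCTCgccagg
RPS19 (chr19:41860240-41860269, plus strand): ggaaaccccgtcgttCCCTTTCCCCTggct
RPL11 (chr1:23691791-23691820, plus strand): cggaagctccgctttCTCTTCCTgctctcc
RPL39 (chrX:119791616-119791645, minus strand): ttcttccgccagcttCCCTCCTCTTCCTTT
RPL22 (chr1:6199581-6199610, minus strand): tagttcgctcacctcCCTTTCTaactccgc
RPL22L1 (chr3:170870181-170870210, minus strand): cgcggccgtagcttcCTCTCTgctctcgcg
RPS27L (chr15:63157463-63157492, minus strand): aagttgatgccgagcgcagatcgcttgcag
EEF1A1 (chr6:73521018-73521047, minus strand): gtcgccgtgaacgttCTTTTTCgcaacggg

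Recovered read totals ranged from 67785956 to 78005035 per library. Of 10 melanoma line markers, 9 were tested and TYR had a mean under 10. The lineage factor SOX10 lay between 34072 and 41363 normalised counts in the 4 libraries, MLANA between 34.9 and 52.02 and PMEL between 65.8 and 98.2, so pigment genes were low. Of the 9 melanoma line markers tested, limma called 1 higher and 3 lower. MITF went from 3533 and 3330 in vehicle to 2414 and 2511 in octanoate. S100B fell from 4234 and 3741 to 1917 and 1746. Summed keratinocyte markers were between 4787 and 6704, fibroblast markers between 2056 and 2396, endothelial markers between 584 and 806 and immune markers between 45.2 and 53.3. KRT1 was at 0 throughout, and KRT5, DSG3, PTPRC and CD3E had means under 10. KRT14 and the collagen gene COL1A1 fell and PECAM1 rose under octanoate. The part of these markers in the results below was not tested.

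Ribosomal protein messages stayed close to their vehicle level under octanoate. Of the 80 genes, 1 rose and 0 fell in limma at a Benjamini-Hochberg adjusted p under 0.05, whereas 29.9% of the 20250 genes tested were called (16.2% higher and 13.7% lower). At an unadjusted p under 0.05, 3 members were higher and 1 lower, against 4276 higher and 3764 lower of the 20250 genes tested. Later counts at this threshold stand beside the same numbers. edgeR on the recovered reads called 2 members higher and 1 lower (32.0% of all genes were called), and DESeq2 called 1 higher and 0 lower (26.1% of all genes). The median log2 difference was 0.049 over the members, 0.0050 over all genes tested and -0.04 over tested genes averaging 10000 or more. The difference was positive for 64 of 80 members and for 10271 of 20250 genes tested. Members moved together from library to library, so their signs are not independent. Values are scaled within each library, so a change in the RNA content of whole cells would not appear, and fewer cells of a type and less RNA per cell cannot be told apart.

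Genes as abundant as the members were called more often in this comparison. The call rate was 38.6% for means from 100 to 1000, 37.9% from 1000 to 10000 and 39.5% from 10000 to 100000. Among the 1566 tested genes averaging 10000 or more, 38.9% were called, and the quartiles of their log2 differences were -0.15 and 0.08. The quartiles were 0.0042 and 0.07 for the ribosomal protein genes. A difference smaller than 0.15 in either direction was found for 78 of 80 members (97.5%), for 60.2% of genes averaging 10000 or more and for 41.2% of all genes tested. Of the 48 genes averaging 100000 or more, which include the most abundant ribosomal protein genes, 18.8% were called.

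**Figure D1:**
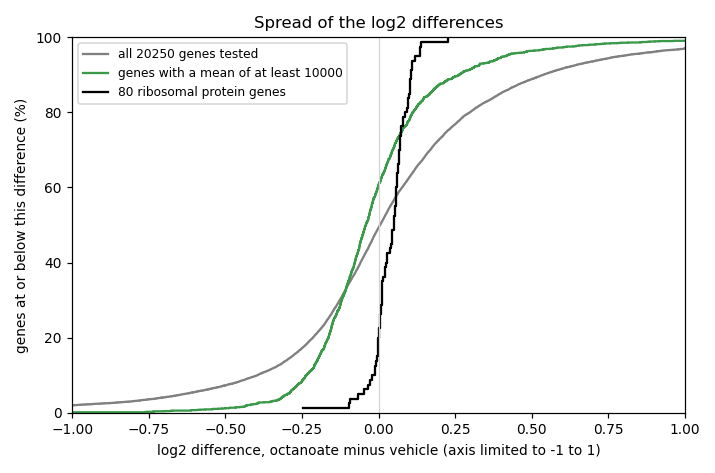
Share of genes (vertical axis, %) at or below each log2 difference between octanoate and vehicle (horizontal axis, cut at -1 and 1) for all genes tested, genes averaging 10000 or more normalised counts, and the 80 ribosomal protein genes. The ribosomal protein curve is the steepest, with 97.5% of members within 0.15 of 0.

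The precision sets what could have been missed. The standard error of a member's log2 difference had a median of 0.065 and ranged from 0.06 to 0.17. It rests largely on limma's variance prior with an intensity trend (21.2 prior degrees of freedom), which draws on other genes of similar level. Without the trend the standard error of FAU was 0.087 in place of 0.061, and that of RPS10 was 0.077 in place of 0.17. For 73 of 80 members the 95% interval lay within 0.25 of 0, which is a rise of under 18.9% or a fall of under 15.9%. All 80 intervals lay within 0.5. Changes of some percent are therefore not excluded for any gene. In the 74 members with a mean of at least 5000, the interval bounds reached from -0.20 to 0.28; limma called 0 of them, with 1 higher at an unadjusted p under 0.05, edgeR called RPS28 and DESeq2 called RPS6.

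**Figure D2:**
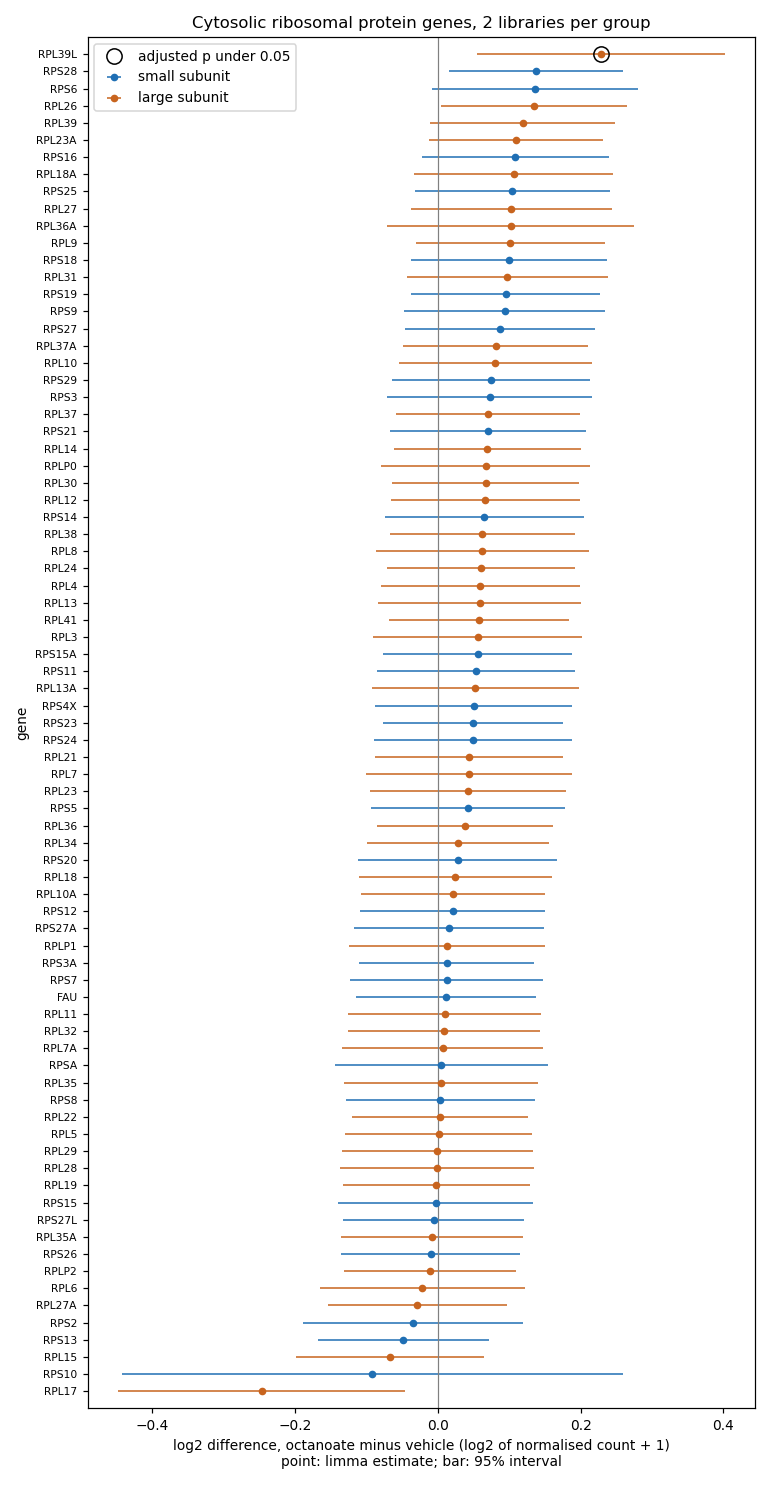
Log2 difference (octanoate minus vehicle, horizontal axis) of 79 of the 80 genes, with its 95% interval from limma, ordered by size and coloured by subunit. Estimates run from -0.25 for RPL17 to 0.23 for RPL39L, the circled gene with an adjusted p under 0.05.

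Ribosomal protein rows held 7.57% and 7.38% of all reads under vehicle and 7.85% and 7.48% under octanoate. The groups overlapped, because octanoate 2 lay below vehicle 1. The means were 7.47% ± 0.140 and 7.67% ± 0.262 (SD, n = 2 each), a difference of 0.194 percentage points that was less than the SD of the octanoate libraries. Small-subunit genes held between 2.95% and 3.15% of the reads and large-subunit genes between 4.42% and 4.70%.

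The median log2 differences of the subunits were 0.049 for the 33 small-subunit genes and 0.053 for the 47 large-subunit genes. Of the small-subunit genes limma called 0, with 1 higher at an unadjusted p under 0.05, edgeR 1 and DESeq2 1. Of the large-subunit genes limma called 1 higher and 0 lower, with 2 higher and 1 lower at an unadjusted p under 0.05, edgeR 1 higher and 1 lower and DESeq2 0. Both sets stayed far under the 29.9% of all genes.

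The members moved together from library to library. Vehicle 1 was above vehicle 2 for 75 of 80 genes, octanoate 1 was above octanoate 2 for 75 of 80, and both held for 73 (91.25%). Both held for 39.9% of all genes tested and for 57.9% of genes averaging 10000 or more. Vehicle 1 alone was above vehicle 2 for 63.2% of all genes and for 84.4% of genes averaging 10000 or more. Octanoate 1 was above octanoate 2 for 56.03% and 63.2%. In genes averaging 10000 or more the median log2 gaps were 0.06 for vehicle and 0.02 for octanoate, so the vehicle order was common among abundant genes. The median member was 0.10 higher in vehicle 1 than in vehicle 2 and 0.12 higher in octanoate 1 than in octanoate 2 on the log2 scale. These gaps between replicates exceed the median difference of 0.049 between the groups. The direction of that median therefore rested on single libraries. Leaving out vehicle 1 or octanoate 2 gave 0.10 and 0.09, but leaving out vehicle 2 or octanoate 1 gave -0.0045 and -0.02. What a replicate number stands for is not stated in the labels.

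**Figure D3:**
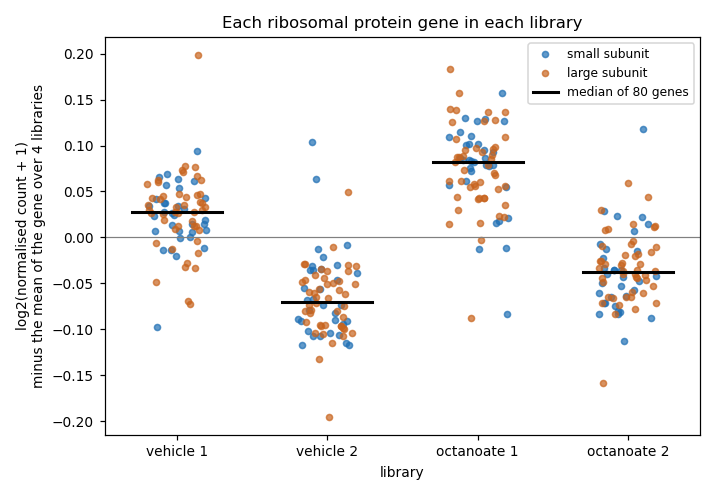
Deviation of each of the 80 genes from its own mean over the 4 libraries (vertical axis, log2 of normalised count + 1) in each library, with the median as a black bar. The medians are 0.03 and -0.07 under vehicle and 0.08 and -0.04 under octanoate, so replicates differ more than the groups do.

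The groups did not overlap for 13 members, against 63.1% of all genes tested. In 9 members both octanoate libraries were higher, namely RPL23A, RPL26, RPL36A, RPL39, RPL39L, RPS16, RPS18, RPS28 and RPS6. In 4 members both were lower, among them RPL17 and RPS13. RPS10 is counted among the 4, but its lower vehicle value and its higher octanoate value are both 100 and differ by less than 1 read, so its groups are not separated in any meaningful way. Over all genes tested these patterns made up 32.6% and 30.5%, and over the members 11.2% and 5%. Some of these genes are named here after their values were seen.

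Among the most abundant members, RPS6, the small-subunit protein phosphorylated by the S6 kinases downstream of mTOR, had 177096 and 184409 normalised counts in vehicle and 191800 and 205550 in octanoate. Both octanoate values were higher, with a log2 difference of 0.14 ± 0.07 (SE; adjusted p 0.152 in limma). DESeq2 on the recovered reads called it with an adjusted p of 0.0429, and in the authors' deposited table its adjusted p of 0.0518 was the smallest of the 80 members. Of the RPS6 transcript, 20.3% lies opposite another gene. RPSA, the small-subunit protein also known as the laminin receptor, had 188869 and 180370 in vehicle and 195971 and 174900 in octanoate. The octanoate values of RPSA bracketed the vehicle values. RPS2, a protein of the messenger entry channel, had 194589 and 181096 in vehicle and 195804 and 171471 in octanoate, again with overlap. RPL3, which lies near the peptidyl transferase centre, had 193606 and 175483 in vehicle and 193603 and 189611 in octanoate, and its groups overlapped.

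The stalk of the large subunit recruits the elongation factors and is built on RPLP0 with dimers of RPLP1 and RPLP2. RPLP0, the most abundant member by count, had 201471 and 184603 normalised counts in vehicle and 204647 and 199375 in octanoate. RPLP1 had 105661 and 95511 in vehicle and 102442 and 100251 in octanoate. RPLP2 had 35106 and 33126 in vehicle and 34314 and 33360 in octanoate. The groups overlapped for all 3, and their log2 differences of 0.07, 0.01 and -0.01 had limma adjusted p values of 0.524, 0.912 and 0.909.

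Proteins made as fusions to ubiquitin or a ubiquitin-like protein are encoded by RPS27A and FAU, and limma, edgeR and DESeq2 called 0 of these 2 genes, with 0 at an unadjusted p under 0.05 in limma. RPS27A, whose product is cleaved into ubiquitin and a small-subunit protein, had 77339 and 75021 normalised counts in vehicle and 80893 and 73276 in octanoate. FAU, which fuses a ubiquitin-like protein to the small-subunit protein eS30, had 13786 and 13038 in vehicle and 14259 and 12805 in octanoate. Both groups overlapped, and the 95% intervals ran from -0.12 to 0.15 for RPS27A and from -0.11 to 0.14 for FAU.

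RPL5 and RPL11 enter the large subunit with the 5S RNA and, when not assembled, bind MDM2. RPL5 had 70075 and 66890 normalised counts in vehicle and 71401 and 65718 in octanoate, and its 95% interval ran from -0.13 to 0.13. RPL11 had 102248 and 96477 in vehicle and 103753 and 96356 in octanoate, with an interval from -0.13 to 0.15. The groups overlapped for both genes. RPL23, RPL26, RPS7 and RPS3, whose products also bind MDM2, had log2 differences of 0.04, 0.13, 0.01 and 0.07 (limma adjusted p 0.685, 0.112, 0.914 and 0.474).

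A list of 12 ribosomal protein genes was followed in which loss of 1 copy causes Diamond-Blackfan anaemia, an inherited failure of red cell production. Limma called 0 of the 12, with 1 higher at an unadjusted p under 0.05; edgeR called RPS28 and DESeq2 0. Their log2 differences ran from -0.10 to 0.14 with a median of 0.0052. RPS19, the gene most often affected, had 65949 and 61181 normalised counts in vehicle and 70455 and 65304 in octanoate. Its groups overlapped (log2 difference 0.09 ± 0.06, SE; adjusted p 0.287 in limma). RPS28 had 20815 and 19453 in vehicle and 22847 and 21438 in octanoate. Both octanoate libraries were higher for RPS28, with a log2 difference of 0.14 ± 0.06 (SE; adjusted p 0.0826 in limma), and scaling with TMM factors gave an adjusted p of 0.0378, equal library totals one of 0.0322. The RPS28 estimate was smaller in other settings, 0.08 after removal of GC and length trends (adjusted p 0.141), 0.09 without vehicle 2 (0.389) and 0.09 without octanoate 1 (0.467), all in limma. RPS28 overlaps KANK3 on the opposite strand in GENCODE 29, and whether counting used the strand is not given in the sources used here.

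The gene that rose was RPL39L, a paralogue of RPL39 with strong expression in testis and in many cancer lines. RPL39 and RPL39L proteins line the exit tunnel of the ribosome. RPL39L had 859 and 767 normalised counts in vehicle and 998 and 906 in octanoate. Every octanoate library lay above every vehicle library, with a log2 difference of 0.23 ± 0.08 (SE; adjusted p 0.0433 in limma), a rise of 17.1%. The call was not stable. Its adjusted p became 0.226 with a variance prior that ignores intensity, 0.225 with every gene tested, 0.158 with DESeq2 and 0.0606 after removal of GC and length trends. It was 0.337 without vehicle 2 and 0.306 without octanoate 1. In the authors' deposited table the adjusted p was 0.145.

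RPL39 itself had 44164 and 42532 normalised counts in vehicle and 49703 and 44561 in octanoate, a log2 difference of 0.12 ± 0.06 (SE; adjusted p 0.164 in limma). The count ratio of RPL39L to RPL39, which is not per length, was 0.0194 and 0.0180 in vehicle and 0.0201 and 0.0203 in octanoate. It was higher in both octanoate libraries (exact permutation p 0.333, two-sided, the smallest p that 2 libraries against 2 allow). Of the 50-base stretches of the RPL39L transcript, 2.98% occur in another gene, all of them in RPL39.

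A paralogue outside the naming rule also rose. RPL22L1, the paralogue of the RNA-binding protein RPL22, had 10866 and 10328 normalised counts in vehicle and 14707 and 13055 in octanoate. Both octanoate values were above both vehicle values, with a log2 difference of 0.39 ± 0.06 (SE; adjusted p 3.1e-05 in limma), and the call was lost in 1 of the alternatives, the variance prior that ignores intensity (adjusted p 0.0931). RPL22 had 43834 and 42201 in vehicle and 44361 and 41855 in octanoate, with a 95% interval from -0.12 to 0.13. The count ratio of RPL22L1 to RPL22 was 0.248 and 0.245 in vehicle and 0.332 and 0.312 in octanoate (exact permutation p 0.333, two-sided). Only 0.701% of the RPL22L1 stretches occur in another gene. As the sequences above show, both genes begin with a pyrimidine tract.

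RPL26L1, the paralogue of RPL26, fell. Its normalised counts were 4556 and 4496 in vehicle and 4147 and 3719 in octanoate, a log2 difference of -0.20 ± 0.06 (SE; adjusted p 0.0156 in limma). Without octanoate 2 the RPL26L1 difference shrank to -0.13 and the call was lost (adjusted p 0.291). Without vehicle 1 or vehicle 2 the call was lost at differences of similar size, -0.20 (adjusted p 0.0886) and -0.21 (0.0596). It was also lost without the intensity trend (0.205) or the filter (0.156). For RPL26L1 52.5% of stretches occur in another gene, mostly the pseudogene RPL26P30, so its count is uncertain. The remaining paralogues did not pass the test in limma. RPL7L1, a homologue of RPL7 known for ribosome assembly, had 18350 and 17341 in vehicle and 16332 and 16335 in octanoate (log2 difference -0.13, SE 0.06, adjusted p 0.0945, and 0.0470 with TMM factors). RPL36AL had a log2 difference of -0.07 (adjusted p 0.358) and RPS27L, a p53 target gene, one of -0.0060 (adjusted p 0.956). The parent RPS27 had 0.09 (adjusted p 0.339).

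**Figure D4:**
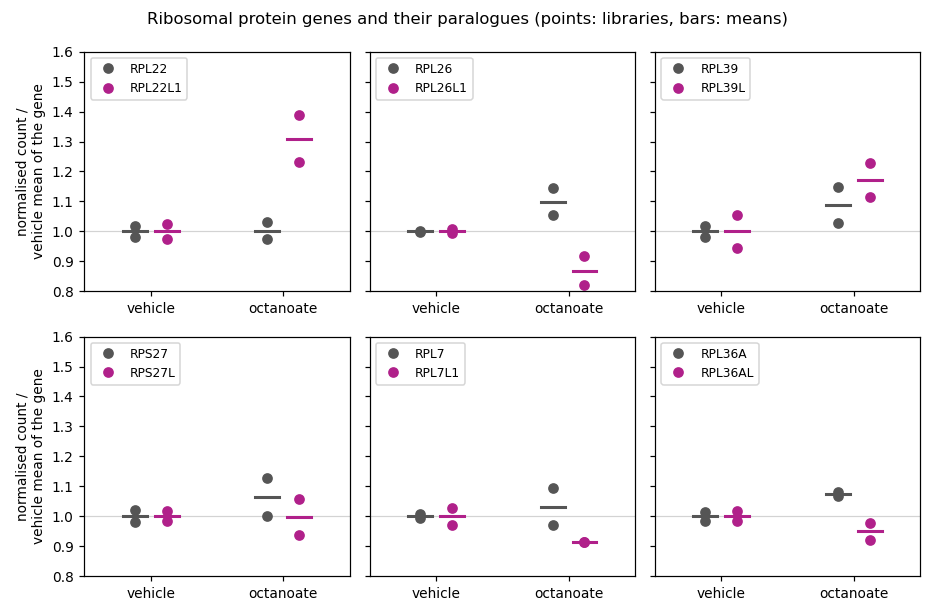
Normalised count of each library divided by the vehicle mean of the same gene (vertical axis starting at 0.8, points are libraries, bars are means) for 6 ribosomal protein genes in grey and their paralogues in magenta. RPL22L1 lies above RPL22 in both octanoate libraries, while RPL26L1, RPL7L1 and RPL36AL lie below their vehicle values.

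Levels of the members were compared with each other per kilobase of coding sequence in GENCODE 29, which leaves out untranslated regions. For 73 members they ran from 30463 (RPS23) to 608807 (RPL41, whose coding sequence has 75 bases) normalised counts per kilobase, with a median of 150265. The paralogue RPL39L stood apart at 5769. A further 6 members were lower than all of those 73, among them RPS10 with 204, RPL17 with 844, RPL36A with 2150, RPL26 with 7177 and RPS15A with 18972. These 6 are the members with at least 40% of the transcript inside exons of another gene on the same strand. Shared sequence is a further limit. Of their 50-base stretches, 87.0% for RPS10, 73.5% for RPL17 and 71.6% for RPL36A occur in another gene. The shares were 46.6% for RPL26 and 30.5% for RPS15A. The part of shared sequence in these levels was not tested.

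RPL17 has 91.03% of its transcript within exons of the readthrough gene RPL17-C18orf32, RPS10 84.01% within RPS10-NUDT3 and RPL36A 77.6% within RPL36A-HNRNPH2. All 3 readthrough genes have a row in the deposited table, and all 3 are listed at 0 in all 4 libraries. RPL26 has 65.3% and RPS15A 41.5% within unnamed GENCODE genes. Those genes have no row in the deposited table, so whether the annotation used for counting held them is not known. Members under 40% reached at most 26.4%. Reads that fall in exons of 2 genes can be left unassigned in counting; the counting mode is not given in the sources used here, and the part of the overlap in these levels was not tested. The 5 named were chosen after their values were seen.

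**Figure D5:**
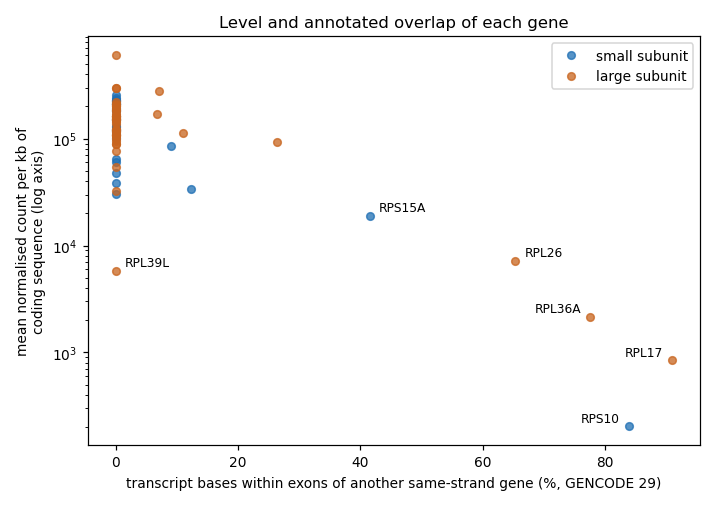
Mean normalised count per kilobase of coding sequence (vertical log axis) against the share of the transcript inside exons of another gene on the same strand (horizontal axis, %, GENCODE 29) for 79 of the 80 members. The 5 members drawn with at least 40% overlap lie between 204 and 18972, and of the others drawn RPL39L, at 5769, is the one below 30463.

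For these 6 genes the deposited counts thus come from transcripts of which 41.5% to 91.03% lies in exons of another gene, and their differences carry that limit. RPL17 had 532 and 479.6 normalised counts in vehicle and 436 and 415 in octanoate. Its log2 difference of -0.25 ± 0.10 (SE; adjusted p 0.0587 in limma) was the lowest estimate among the members, and edgeR, TMM factors, equal library totals, removal of GC and length trends, a filter at a mean of 50 and the addition of pseudogene rows each brought it under 0.05. It did not pass with DESeq2, without the filter, without the intensity trend or with any 1 library left out, and its adjusted p in the authors' deposited table was 0.226. RPS10 had 100 and 109 in vehicle and 100 and 95.4 in octanoate (log2 difference -0.09, SE 0.17, adjusted p 0.734). RPL26 had 2970 and 2979 in vehicle and 3402 and 3136 in octanoate, with both octanoate libraries higher.

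Processed pseudogenes of ribosomal protein genes can take reads from their parents. The table has 408 rows named as pseudogenes of 69 members, of which 93 had no read and 52 had a mean of at least 10. Together they held 1.07% of what the members held. RPS2P5 with a mean of 29371 (15.8% of RPS2), RPL9P9 with 12500 (24.4% of RPL9) and RPL41P1 with 3312 (7.25% of RPL41) were the most abundant. Of the 50-base stretches of RPS10, RPL9, RPS3A and RPL21, 87.0%, 86.02%, 83.4% and 80.07% occur in another gene. The split of reads between such members and their copies is therefore uncertain. The 3 pseudogenes' log2 differences were -0.00089, 0.08 and 0.00066, beside -0.03, 0.10 and 0.06 for RPS2, RPL9 and RPL41. Of the 52 tested, 1 was called higher and 0 lower in limma (1.92%, against 29.9% of all genes), and 3 were higher and 0 lower at an unadjusted p under 0.05. Many of these rows have means from 10 to 100, where 13.1% of all genes were called. Their median standard error was 0.25, against 0.065 for the members, so changes in them were harder to detect. Adding the pseudogene rows to their parents left the median of the members at 0.049.

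The authors' deposited table calls 12.9% of its 33533 genes at an adjusted p under 0.05, and 0 of the 80 members. That share is over every gene listed, low counts included, so it is not comparable with the shares given for the other fits. In number, 4329 genes were called there, and 4207 of 16101 by DESeq2 on the recovered reads. Limma called 1 member, edgeR 3 and DESeq2 1, and 4 had an unadjusted p under 0.05 in limma. The median log2 fold change of the members in the authors' deposited table was 0.049, with a range from -0.25 (RPL17) to 0.23 (RPL39L).

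Elongation factors are other abundant proteins of translation, and 11 of 14 genes of that list with a RefSeq entry carry the tract (78.6%). Of 20 genes for elongation factors and related proteins, 19 were tested and limma, edgeR and DESeq2 each called 0, with 0 at an unadjusted p under 0.05 in limma. Their median log2 difference was -0.02. The smallest p values belonged to EEF1D, a nucleotide exchange factor of elongation (5314 and 5268 in vehicle, 4966 and 4780 in octanoate; log2 difference -0.12, SE 0.06, adjusted p 0.129), and to EIF3E, a subunit of the initiation factor eIF3 (log2 difference 0.10, SE 0.06, adjusted p 0.245). After removal of GC and length trends EEF1D had an adjusted p of 0.0019 in limma. In that setting falls were more common in general, with 4051 genes lower and 2924 higher. EEF1G was listed at 0 in all 4 libraries and could not be tested.

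The shares called in the following lists of genes around the ribosome stand beside 29.9% of all genes tested, and genes beyond the smallest p values of each list are named after their values were seen. Of 30 factors for the small-subunit precursor 3 fell and 0 rose in limma (10.0% called, against 29.9% of all genes). IMP3, a protein of the U3 particle, fell from 2155 and 1936 to 1623 and 1577 normalised counts (log2 difference -0.35, SE 0.07, adjusted p 0.00043). MPHOSPH10, its partner, fell from 7565 and 7763 to 6636 and 6538 (log2 difference -0.22, SE 0.06, adjusted p 0.0046). NOP56, a core protein of box C/D particles, was the other gene that fell. edgeR called 6 of this list lower.

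Of 35 factors for the large-subunit precursor, 2 rose and 3 fell (14.3% called, against 29.9%). EFL1, the GTPase that releases EIF6 from new large subunits, rose from 3993 and 3729 to 4950 and 4777 normalised counts (log2 difference 0.33, SE 0.06, adjusted p 0.00015). NVL, an ATPase of nucleolar assembly, fell from 3654 and 3659 to 3084 and 3039 (log2 difference -0.26, SE 0.06, adjusted p 0.0021). NMD3, the export adaptor of the large subunit, also rose, and PES1 and TEX10 also fell. Of 9 nucleolar and small nucleolar particle genes 2 fell (22.2% called), the pseudouridine synthase DKC1 (log2 difference -0.16, adjusted p 0.0316) and the nucleolar chaperone NOLC1 (-0.15, adjusted p 0.0424); both calls were lost in several alternatives, among them without vehicle 1 (adjusted p 0.157 for DKC1 and 0.199 for NOLC1).

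Ribosomal RNA is made by RNA polymerase I. Of 20 genes for its subunits and factors 2 rose and 3 fell (25% called, against 29.9%). UBTF, which opens ribosomal DNA for transcription, fell from 12905 and 12345 to 10928 and 10380 normalised counts (log2 difference -0.25, SE 0.06, adjusted p 0.0019). POLR2F, a subunit shared by the nuclear polymerases, fell with a log2 difference of -0.27 (SE 0.06, adjusted p 0.0019). Of 10 genes for chaperones and importers of single ribosomal proteins 2 rose and 2 fell (40% called). PDCD2L rose (log2 difference 0.37, SE 0.09, adjusted p 0.0030) and HEATR3, which carries RPL5 and RPL11 into the nucleus, fell (log2 difference -0.23, SE 0.06, adjusted p 0.0078).

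Among 20 genes that control ribosomal protein translation through mTOR, LARP1 and MYC, 4 rose and 2 fell. These are 30.0% of the list, the same as the 29.9% of all genes tested, so the count says nothing particular about the list. MYC, a transcription factor of ribosome synthesis, rose from 1112 and 1034 to 1698 and 1660 normalised counts (log2 difference 0.65, SE 0.07, adjusted p 1.9e-07). SESN2, an inhibitor of mTOR complex 1, rose from 1353 and 1325 to 2064 and 1926 (log2 difference 0.57, SE 0.07, adjusted p 6.2e-07). DDIT4, another inhibitor, and RHEB, the activating GTPase, rose as well, while EIF4EBP2, a repressor of cap-dependent translation, and MXD4, an antagonist of MYC, fell. Message levels say nothing of the activity of mTOR. Of 14 genes that respond to stalled ribosomes 2 rose (14.3% called, against 29.9%): PELO, which splits stalled ribosomes (log2 difference 0.31, SE 0.06, adjusted p 0.00029), and MAP3K20, the kinase ZAK (log2 difference 0.21, SE 0.06, adjusted p 0.0123).

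Mitochondrial ribosomal proteins, encoded in the nucleus for the separate ribosome of mitochondria, were set beside the cytosolic ones. Of 77 tested, 7 rose and 4 fell (14.3% called, against 29.9% of all genes), with a median log2 difference of -0.0039. A difference smaller than 0.15 was found for 80.5% of them and for 97.5% of the cytosolic members. The difference between the sets was not tested.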

How the data were processed

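RNA from A375 cells under octanoate or vehicle was sequenced, 2 libraries per group. Per the submitters' processing notes the tools were bcl2fastq 2.17, Trim Galore, STAR 2.4, Picard, HTSeq 0.9.1 and DESeq2 with build hg38; the annotation and strand setting are not given in the sources used here. The authors deposited a signal per gene and library, counts divided by 1 size factor. All values (100% in each library, tolerance 0.01) were whole multiples of the smallest positive one, which gave whole reads. The authors' deposited table of the comparison lists mean signal, log2 fold change and SE, a test score and p-values.

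limma 3.58.1 (R 4.3.3; intensity trend) was fitted to log2(normalised count + 1) of 20250 genes with a mean of at least 10, with treatment as the only term, and adjusted over all of them (Benjamini-Hochberg, 0.05). A pseudocount of 1 understates changes of low genes. Alternatives included edgeR 4.0.16 and DESeq2 1.42.0 on recovered reads. The fits were also run on simulated data with far fewer changed genes than were called here. No result above rests on that run. GENCODE 29 gave lengths, overlaps and shared 50-base stretches, RefSeq the starts. An exact permutation test of 2 against 2 libraries cannot go below p 0.333.

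Named genes were the 6 largest called rises and falls, the 5 most abundant members, members of fixed roles, the 5 paralogues outside the rule, and the 2 smallest p values of each companion list. Members and lists were chosen with earlier results of these data known. A few genes are not reported here.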

Additional observations from a re-analysis of the deposited data

How the results depend on the processing

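For the members, 1 called higher and 0 called lower were unchanged with pseudocounts of 0.5 and 5, over genes found in GENCODE 29, and in number with DESeq2, which called RPS6 in place of RPL39L. The number called higher was 0 without the filter, without an intensity trend and after removal of GC and length trends, and 2 with TMM factors, equal library totals and edgeR. The number called lower was 1 with a filter at a mean of 50, TMM factors, equal library totals, edgeR and pseudogene rows added, and 2 after removal of GC and length trends. Leaving out single libraries gave 0 to 1 higher and 0 lower. The median log2 difference lay between -0.02 and 0.10 when 1 library was left out, and the difference in the share of reads between 0.0092 and 0.379 percentage points. The median was 0.0033 after removal of GC and length trends, when the median of all genes moved to -0.04; only 74.8% of tested genes have a length, so that check is void over all genes, while all 80 members have one. With the replicate number as a replicate block, 11 members were higher and 1 was lower, and 4307 genes were higher and 4069 lower in all. Deviations from the group means in same-numbered libraries had a correlation of 0.13 across the genes tested. With 2 libraries per group this is a single correlation, which cannot decide whether the libraries were paired. Counts over all genes also moved. The main fit called 3271 of 20250 higher and 2777 lower. Without the filter 1597 of 43449 were higher and 998 lower, and without an intensity trend 1095 of 20250 and 530. Fewer of all genes were thus called in both of these settings. After removal of GC and length trends 2924 of 15141 were higher and 4051 lower. For the 17 named genes that were called, 247 of 289 alternative fits kept the call and 42 lost it, with 0 reversals. For the 36 named genes that were not called, 16 of 612 alternative fits gained a call. Low counts limit RPS10 most.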

Other observations

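GAS5, a non-coding host gene of small nucleolar RNAs whose transcript carries a pyrimidine tract like that of the ribosomal proteins, is no member and was chosen after its values were seen. It had 24568 and 23004 normalised counts in vehicle and 29719 and 29173 in octanoate. The log2 difference was 0.31 ± 0.06 (SE; adjusted p 0.00022 in limma). Both octanoate libraries were higher, a rise of 23.9%, which is larger than the estimate of any of the 80 ribosomal protein genes.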
